A study of Mus musculus with 12 samples.

Results

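Total RNA was compared with newly made RNA in naive mouse embryonic stem cells (ESCs), to describe which functions and families hold the most and the least stable transcripts. The members were 6 of the 12 libraries of the series, 3 of total RNA and 3 of RNA labelled with 4-thiouridine (4sU), and the genes with at least 3 CPM (reads of a gene scaled to the size of the library) in at least 3 of these 6 libraries, which were 13333 of the 51467 genes counted. The series follows ESCs into epiblast-like cells (EpiLCs) and asks how much of each change in mRNA comes from transcription and how much from stability. Both groups of libraries came from ESCs grown in Knockout DMEM with 15% fetal bovine serum, LIF and the 2i inhibitors PD0325901 and CHIR99021. All cells were fed 4sU at 500 µM for 30 min, so the RNA called total came from labelled cells too. After extraction the RNA was divided: one share was depleted of ribosomal RNA (total libraries), and from another the thiol-bearing RNA was biotinylated and captured on streptavidin (4sU libraries). The labels name no line, strain or genotype, and do not say whether the 3 replicates were separate cultures. For its differentiation experiment the paper lists a V6.5 ESC line that carries mCherry and GFP reporters of microRNA loci. The paper calls the replicates biological but does not describe how they were kept apart. The p-values thus measure the spread between these libraries, which may be technical. Depletion is described for the total RNA alone, so its effect and that of capture cannot be told apart from the difference between the assays.

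The level of a transcript at steady state is set by how fast it is made and how fast it is removed, so at a given rate of synthesis a long-lived transcript accumulates in total RNA while a short-lived one does not. Transcripts of enzymes and structural proteins are known to be long-lived in mammalian cells, and those of transcription factors and signal-induced regulators to be short-lived. Many of the latter carry AU-rich elements in the 3′ UTR, which decay factors bind. Naive ESCs resemble the epiblast before implantation and are held there by a set of transcription factors whose levels have to fall on exit from the state.

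Relative stability is given here as log2 of total over 4sU RNA, after TMM scaling of the libraries (a trimmed mean of the log ratios between libraries). A positive value means a larger share of total than of nascent RNA, and 0 is set by the scaling, not by a half-life. A gene was called higher in one assay at a Benjamini-Hochberg adjusted p under 0.05 with an absolute log2 difference over 1 (limma-voom). Summed counts were 3450940 to 5385644 reads in the 4sU libraries and 11024715 to 21975684 in the total libraries, so the nascent values carry the larger counting error. Spearman's rho between replicates was 0.964 to 0.986 for 4sU and 0.982 to 0.998 for total RNA, and 0.767 to 0.788 between the assays. The 7 naive markers were all kept, with a summed level of 2960 to 3370 CPM in total RNA, against 63.2 to 92.2 CPM for 18 fibroblast genes, 10.1 to 14.9 CPM for 12 primitive endoderm genes, 89.5 to 91.9 CPM for 10 trophectoderm genes and 341 to 406 CPM for 11 formative and primed genes. Of the fibroblast genes, Postn, Dcn, Fap and S100a4 had no read in total RNA, and of the endoderm genes Afp had none. In 4sU RNA the fibroblast genes summed to 29.9 to 39.7 CPM.

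Relative stability covered a wide range. Of the 13333 genes, 3066 (23.0%) were higher in total RNA and 3493 (26.2%) were higher in 4sU RNA, and in 10467 genes (78.5%) the 3 total and the 3 4sU libraries did not overlap. The tenth and ninetieth percentiles were -3.02 and 1.63, and the quartiles were -1.09 and 0.94. The median standard error of a gene was 0.17, and the median SD over the 3 pairs of libraries with the same number, called library pairs below, was 0.23. A gene can pass the minimum through a single assay, and 1069 genes did, of which 895 were called higher in 4sU and 111 higher in total RNA. Such genes are selected for a difference. Counts and medians over lists are therefore given for the 12264 genes whose mean log2 CPM over both assays also reached that of 3 CPM. Among these, 2955 (24.1%) were higher in total and 2598 (21.2%) in 4sU RNA, with a median relative stability of 0.15. The corresponding shares of the 11049 protein-coding genes were 2866 (25.9%) and 1677 (15.2%). This balance rests on the scaling: of all 11349 protein-coding genes kept, 2954 were higher in total and 1829 in 4sU RNA, but 2232 and 2363 when they were scaled and fitted without the other genes.

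Types of gene differed widely. Protein-coding genes had a median of 0.28 (SD over library pairs 0.03, n = 3). Long non-coding genes had a median of -2.52 (SD 0.10, n = 3), with 351 of 444 higher in 4sU and 9 higher in total RNA. The annotation class TEC, which holds transcripts awaiting experimental evidence, had a median of -3.96 (SD 0.36, n = 3), with 366 of 370 higher in 4sU RNA. Many genes of these classes lie inside another gene on the same strand, where reads of an unspliced host transcript can be counted for them. The 372 long non-coding genes outside any such gene had a median of -2.16, and the 72 inside one had -3.90. The 326 that shared no exonic base with a same-strand gene had -2.07, with 240 higher in 4sU RNA. For TEC genes the medians were -3.34 outside (63 genes) and -4.07 inside (307 genes). Pseudogenes spread to both sides, with 38 of 149 higher in total, 63 higher in 4sU RNA and a median of -0.41.

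**Figure D1:**
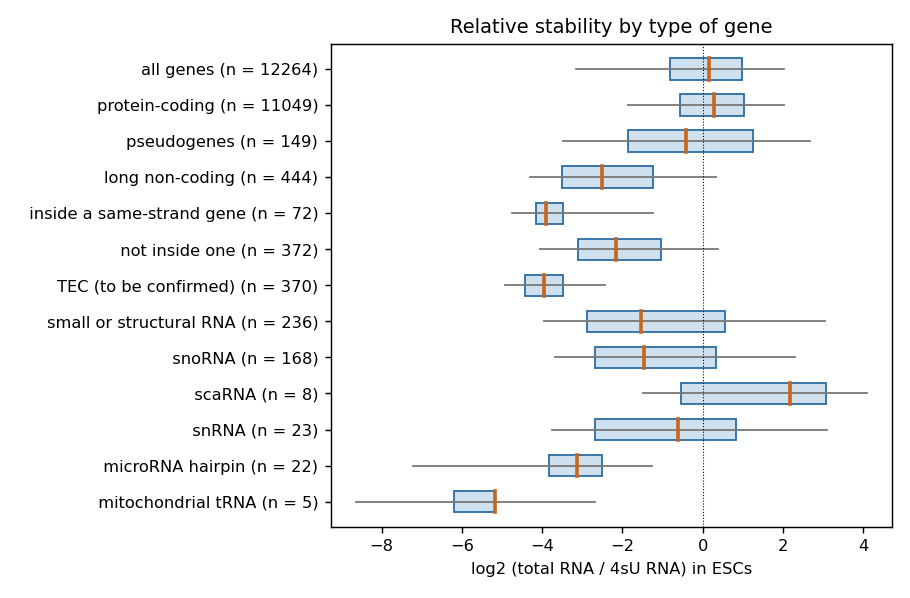
Relative stability (log2 of total over 4sU RNA, horizontal axis) by annotated type of gene, over genes that reached the CPM minimum on the mean of both assays. Boxes span the quartiles, orange lines mark medians and grey lines run between the outer 5% on each side. Protein-coding genes centre on 0.28, long non-coding genes on -2.52 and TEC genes on -3.96.

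The highest ratios among protein-coding genes were those of Galk1, Ech1 and Lamb2. Galk1, the galactokinase that starts galactose breakdown, had 14.7, 16.9 and 11.2 CPM in the 4sU libraries and 195, 198 and 151 CPM in the total libraries. All 3 total libraries lay far above all 3 4sU libraries, a ratio of 12.5-fold (log2 3.64 ± 0.21 SE, adjusted p = 7.26e-07). Ech1, an enzyme of fatty acid oxidation, had 9.96, 11.3 and 10.1 CPM in 4sU and 124, 130 and 133 CPM in total RNA (log2 3.6 ± 0.16 SE). Lamb2, a laminin chain of basement membranes, had 7.06, 8.25 and 13.1 CPM against 104, 95.4 and 126 CPM (3.58 ± 0.24 SE). These genes were picked as the highest among called genes whose assays do not overlap, so the separation of the assays was fixed by that choice. Next came Etfb (3.41), Khdc3 (3.33), Pmel (3.32), Rabac1 (3.27) and Nipsnap1 (3.22). Etfb and Khdc3 share 69.1% and 47.0% of their exonic bases with another gene on the same strand, so reads there may have been left uncounted. The valine tRNA synthetase Vars followed at 3.19, the histone H3K9 methyltransferase Ehmt2 at 3.17, the DNA damage sensor Parp1 at 3.15 and the nuclear lamina gene Lmna at 3.13. Parp1 was among the most abundant of these, with 182, 183 and 150 CPM in 4sU and 1620, 1530 and 1430 CPM in total RNA.

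Of the 12 lowest protein-coding genes 6 were mitochondrially encoded, and those are described further on. Lars2, the mitochondrial leucyl-tRNA synthetase, had 14100, 15700 and 22300 CPM in the 4sU libraries and 35.3, 30.7 and 39.0 CPM in the total libraries. This is a 491-fold excess in nascent RNA (log2 -8.94 ± 0.18 SE, adjusted p = 1.43e-08), and Lars2 shared sequence with Gm15564, the gene of another type with the lowest ratio (-9.98 ± 0.25 SE), in 0.08% of its 50-base windows. The part of ribosomal RNA depletion, described for total RNA alone, in the values of Lars2 and Gm15564 was not tested. Egr1, the growth factor-induced zinc finger factor, had 725, 542 and 25.2 CPM in 4sU and 10.9, 7.80 and 1.02 CPM in total RNA (log2 -5.37 ± 1.58 SE, adjusted p = 0.0114). Library pair 3 was the lowest in both assays. Even there nascent Egr1 lay above each total library, which the choice of genes required. Setd1b, an H3K4 methyltransferase, had 92.2, 92.4 and 69.1 CPM against 3.04, 3.41 and 3.80 CPM (-4.64 ± 0.20 SE). The zinc finger factor Plagl2 had 129, 151 and 142 CPM against 5.69, 6.58 and 6.59 CPM (-4.48 ± 0.14 SE). Adnp was at -4.57 and Fam122a at -4.18. Adnp shares 86.0% of its exonic bases with Gm20716, and Fam122a lies inside Pip5k1b on the same strand, so part of their reads may belong to, or be lost to, the other gene. Among other types the lowest after Gm15564 were Gm47430 (-5.86), B130021K23Rik (-5.68), Gm42659 (-5.50), Gm37105 (-5.39) and Gm43857 (-5.24), and the highest were Scarna6 (4.36), Rprl3 (3.73), Scarna13 (3.6) and the pseudogenes Gm8292 (3.38), Gm9625 (3.1) and Gm6472 (3.09).

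**Figure D2:**
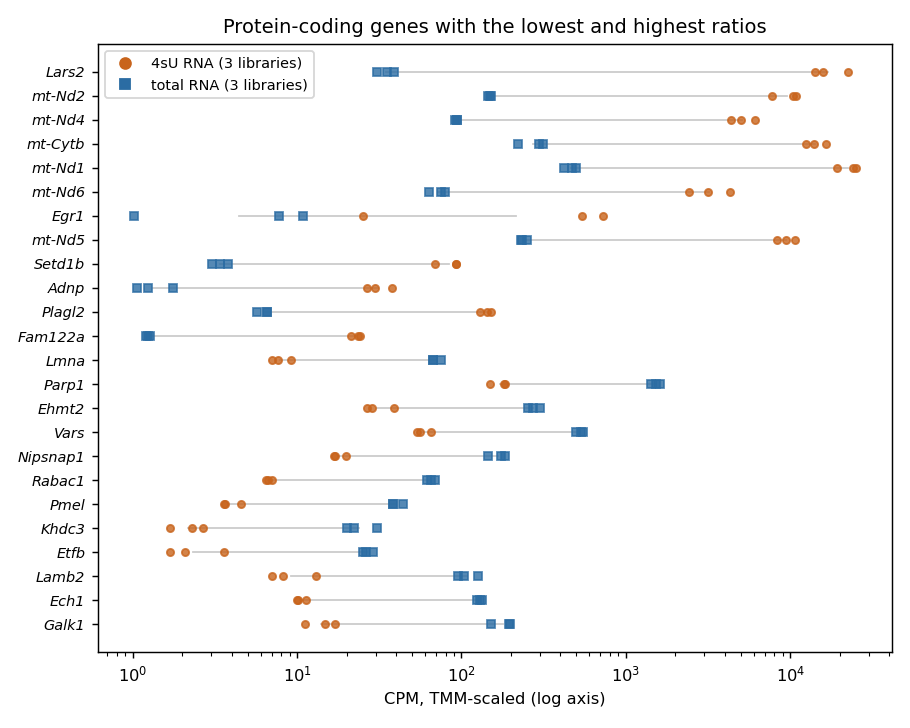
TMM-scaled CPM (log axis) of the 12 protein-coding genes with the lowest and the 12 with the highest relative stability among genes called, averaging 10 CPM or more over the 6 libraries. Orange circles are the 3 4sU libraries, blue squares the 3 total libraries, and grey lines join their geometric means. Genes were also chosen for assays that do not overlap. Egr1 has the widest spread within an assay, from 25.2 to 725 CPM in 4sU RNA.

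Core metabolism had the highest medians among the protein-coding lists, with tRNA charging and the proteasome beside it. All 23 genes of the tricarboxylic acid cycle, which oxidises acetyl units in mitochondria, were higher in total RNA, with a median of 1.99 (SD over library pairs 0.10, n = 3). The cycle enzymes ranged from Mdh2 at 1.00 to Idh2 at 2.82. Idh2 had 54.2, 51.1 and 42.8 CPM in 4sU and 362, 351 and 340 CPM in total RNA, while Mdh2 had 70.4, 78.9 and 66.0 CPM against 147, 151 and 134 CPM. Both were apart in every library, by 7.07-fold and 2.00-fold, but Mdh2 lay at the fold threshold and lost its call without 4sU library 1 or 3 or total library 1 or 2 (0.95 to 1.00). Of 24 glycolytic genes 18 were higher in total RNA (median 1.79, SD 0.12, n = 3). The lactate dehydrogenase Ldha was the highest of them, with 135, 155 and 140 CPM in 4sU against 1140, 1200 and 889 CPM in total RNA (2.90 ± 0.13 SE), followed by the pyruvate kinase Pkm (2.81) and the aldolase Aldoa (2.63). Gapdh was the exception, at -2.84, and is taken up with the ribosomal proteins below. Nuclear genes for respiratory complexes and ATP synthase had a median of 1.74 (SD 0.15, n = 3), with 65 of 79 higher in total and 3 higher in 4sU RNA. Their highest member was Uqcrc1 of complex III (2.90 ± 0.11 SE, from 67.9, 61.4 and 65.7 to 523, 498 and 438 CPM). Synthesis of nucleotides and one-carbon units followed, with 28 of 36 genes higher in total RNA (median 1.43), from the purine enzyme Gart at 2.84 to the thymidylate synthase Tyms, whose assays overlapped (-0.09, adjusted p = 0.595).

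Enzymes that charge tRNAs and subunits of the proteasome formed the other 2 lists near the top. Of 22 aminoacyl-tRNA synthetase genes 21 were higher in total RNA (median 1.95, SD 0.07, n = 3). Their lowest member, the scaffold Aimp2, was at 0.95, just under the fold threshold, although its assays did not overlap (28.2, 29.4 and 27.1 against 60.9, 54.5 and 50.1 CPM). Of 44 proteasome genes 37 were higher in total and none in 4sU RNA (median 1.80, SD 0.12, n = 3). Psmb3, a beta ring subunit with 55.8% of its 50-base windows found in other genes, was the highest (2.55), and Psma3 the lowest (-0.34, adjusted p = 0.019), with 65.0, 60.3 and 54.5 CPM in 4sU and 47.0, 48.9 and 46.7 CPM in total RNA. No member of the synthetase, proteasome or citric acid lists was called higher in 4sU RNA, against 15.2% of protein-coding genes.

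Secreted, folding and replication proteins were also mostly on the stable side. Collagens and basement membrane genes had 20 of 30 members higher in total RNA (median 1.35), from Lamb2 to the fibronectin gene Fn1 at 0.45. Chaperonins and heat shock proteins had 19 of 37 (median 1.16). The chaperonin subunit Cct3 was at 2.42, with 199, 219 and 215 CPM in 4sU and 1200, 1180 and 1030 CPM in total RNA. Dnajb9, a chaperone induced by stress in the endoplasmic reticulum, was at -3.88, with 147, 189 and 166 CPM against 11.7, 12.1 and 9.65 CPM. Antioxidant and glutathione genes (23 of 45, median 1.04), lysosomal pump and hydrolase genes (24 of 44, median 1.03), the replication machinery (26 of 51, median 1.02), tubulins (7 of 14, median 0.99) and the actin cytoskeleton (21 of 43, median 0.97) lay close together. Their highest members were the peroxiredoxin Prdx2 (2.63), the saposin precursor Psap (2.42), the polymerase delta subunit Pold1 (3.00), Tubb3 (2.06, inside Gm20388 on the same strand) and the actin-capping Capg (3.05). Their lowest were the glutathione synthesis subunit Gclm (-0.83), the lysosomal peptidase Tpp1 (-0.85), the replication initiation factor Ticrr (-1.93), Tube1 (-0.17) and Actg1 (-3.52).

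Translation and gene expression machinery had medians nearer to that of all genes. Translation initiation and elongation factors had 29 of 62 members higher in total RNA (median 0.82), from Eif3i, a subunit of the initiation factor that binds the small ribosomal subunit, at 2.83 to the start codon selector Eif1 at -2.60. Mitochondrial ribosomal proteins had 29 of 75 (median 0.80; Mrpl14 2.19, Mrps2 -1.47), and genes for protein entry into the endoplasmic reticulum and N-glycosylation had 14 of 33 (median 0.74; Rpn2 2.29, Sec61g -3.59). Bcl2 family genes of cell death had 3 of 15 higher in total and 4 in 4sU RNA (median 0.63, Bad 1.74, Bcl2l11 -1.47). Sterol and fatty acid synthesis had 14 of 35 higher in total RNA (median 0.61; Pmvk 2.32). Sm, LSm and snRNP proteins had 12 of 40 higher in total and 3 in 4sU RNA (median 0.56, Snrnp200 1.99, Sf3a2 -1.69). RNA polymerase subunits had 7 of 28 higher in total and 3 in 4sU RNA (median 0.51, Polr2f 1.67, Polr2a -1.93). Cyclins and their inhibitors had 7 of 30 higher in total and 6 in 4sU RNA (median 0.49). For polymerase subunits, cyclins and the Bcl2 family the share higher in total RNA lay below the 25.9% of protein-coding genes. The share higher in 4sU RNA lay below the 15.2% of protein-coding genes for polymerase subunits and above it for cyclins and the Bcl2 family. The Bcl2 list has only 15 genes, so a few calls decide its shares. The cyclin gene Ccnd3 was at 2.07, with 40.1, 45.0 and 40.0 CPM in 4sU and 180, 177 and 169 CPM in total RNA. Cdkn1a, the p53-induced inhibitor of cyclin-dependent kinases, was at -3.35, with 375, 337 and 529 CPM against 38.8, 34.3 and 48.2 CPM. mRNA decay factors had 10 of 56 higher in total and 16 in 4sU RNA (median 0.16), from the scavenger decapping enzyme Dcps (1.74) to Zfp36 (-3.79), which binds AU-rich elements. Amino acid transporters (median -0.02) had 2 of 20 higher in total and 1 in 4sU RNA, Slc38a10 at 2.13 and Slc38a2 at -1.78 at their ends.

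**Figure D3:**
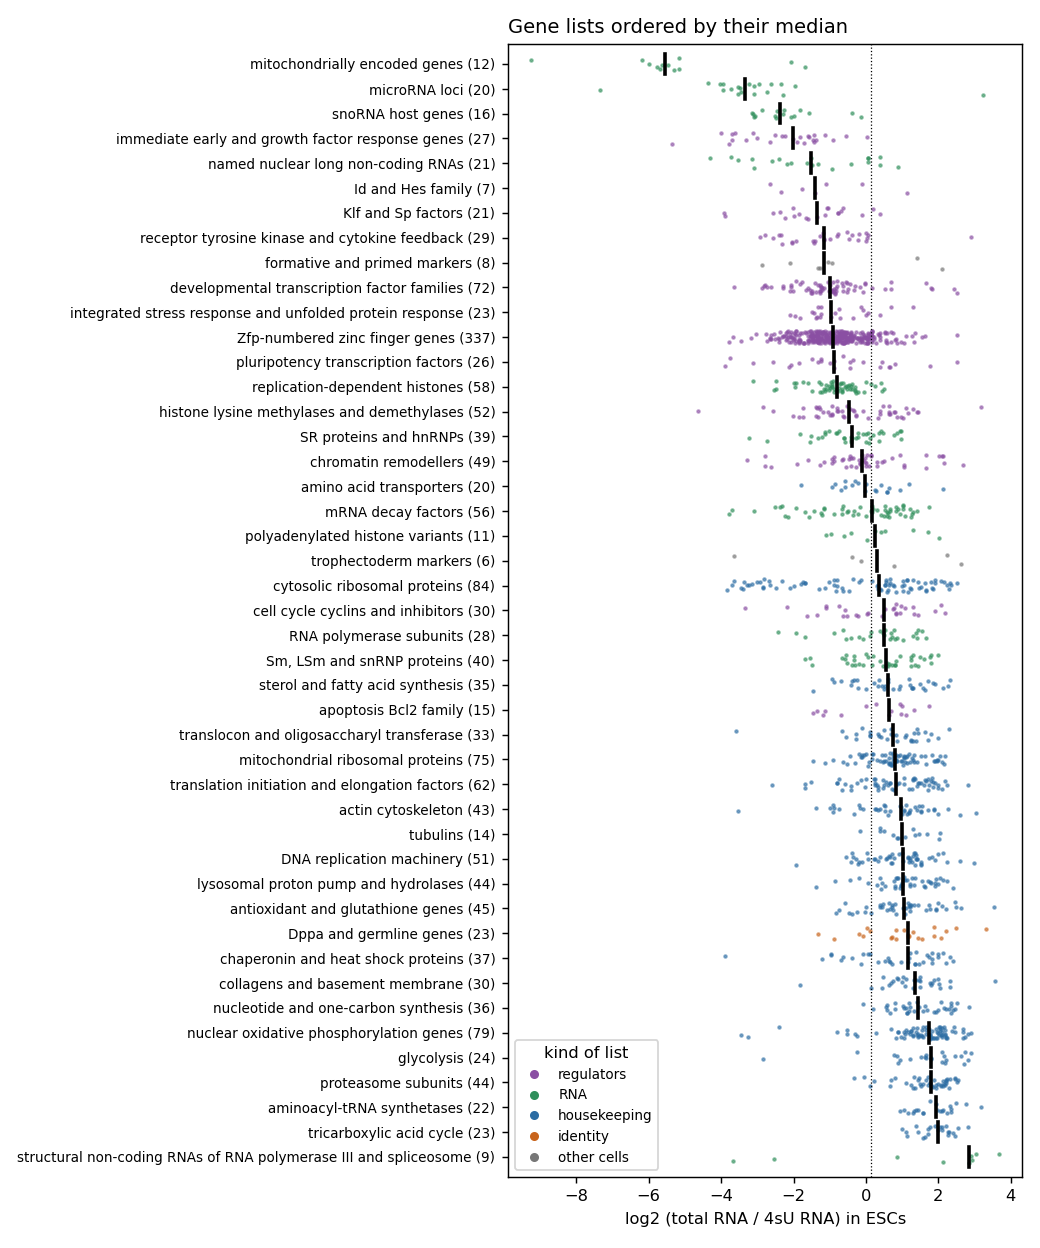
Relative stability (log2 of total over 4sU RNA, horizontal axis) of each member of the gene lists with at least 5 members that reached the CPM minimum on the mean of both assays. Lists are ordered by their median (black bars), the number of members stands in brackets, colours give the kind of list, and the dotted line marks the median of all genes (0.15). Most lists of regulators and most non-coding lists lie to the left, and metabolic and proteolytic lists to the right. Among regulators, cyclins and their inhibitors (0.49) and the Bcl2 family (0.63) lie to the right of the dotted line.

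Genes induced by signals had the lowest median among the lists of nuclear protein-coding genes. Of 27 immediate early and growth factor response genes 24 (88.9%) were higher in 4sU RNA and none in total RNA, with a median of -2.01 (SD over library pairs 0.17, n = 3). With the genes that passed through 1 assay the count was 26 of 29 and the median -2.23. The AP-1 subunit gene Fos had 105, 99.6 and 48.1 CPM in 4sU and 12, 8.14 and 4.64 CPM in total RNA (-3.32 ± 0.37 SE, adjusted p = 3.02e-05). Dusp1, a phosphatase that inactivates MAP kinases, had 199, 226 and 136 CPM against 18.6, 16.4 and 9.65 CPM (-3.62 ± 0.25 SE). Myc was at -3.71, the AU-rich element binding Zfp36l1 at -3.71, the matricellular Ccn1 at -3.0, Jun at -2.66, Ier2 at -2.32 and Junb at -1.70. In each of the genes just named the lowest 4sU library was above the highest total library. Jund, the AP-1 subunit known for more even expression, was the highest of the list at 0.04, and its assays overlapped (79.9, 92.9 and 173 CPM in 4sU, 107, 100 and 127 CPM in total RNA).

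Feedback inhibitors of receptor tyrosine kinase and cytokine signalling were lower than all genes as well, with 16 of 29 higher in 4sU and 1 in total RNA (median -1.17). Spred2 was at -2.92, Spry4 at -2.78 and the ERK phosphatase Dusp6 at -2.35. Library pair 3 was the lowest in both assays for Spry4 (99.2, 106 and 18.5 CPM in 4sU and 13.2, 14.2 and 2.69 CPM in total RNA) and for Dusp6 (96.5, 112 and 38.3 CPM against 19.2, 20.7 and 6.96 CPM). The ratios stayed below 0 in every library pair despite that spread. Dusp9, another MAP kinase phosphatase, was the single member called higher in total RNA, with 9.55, 9.33 and 9.23 CPM in 4sU and 77.4, 85.8 and 53.9 CPM in total RNA (2.91 ± 0.27 SE). Dusp9, picked as the highest of its list, and Dusp1 thus differed in relative stability by more than the spread of either. Genes of the integrated stress and unfolded protein responses had 11 of 23 higher in 4sU RNA (median -0.97), with Chac1 at -2.10, Ddit3 at -1.37 and Atf4 at -1.23, while the asparagine synthetase gene Asns was at 1.30.

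AU-rich heptamers were counted in the 3′ UTR of the principal transcript, because the heptamer TATTTAT is the core that AU-rich element binding proteins recognise. Matches on the transcribed strand were counted, overlapping ones included. Of 26 immediate early genes with a 3′ UTR, 18 (69.2%) held at least 1, against 29.4% of 10920 protein-coding genes, 2.44% of ribosomal protein genes and 7.59% of nuclear oxidative phosphorylation genes. The list's median 3′ UTR length was 1131 bases and that of all 1067, but it was 89 in ribosomal protein and 175 in oxidative phosphorylation genes. Shares did not follow relative stability in every list. They were 37.5% in glycolytic genes, 34.6% in pluripotency factors and 35.3% in Zfp-numbered genes, but 54.9% in the developmental families. A match is a description of the sequence and not a shown binding site. Of genes with a 3′ UTR, 34.9% of 149 in the lowest 10% by relative stability held a site (median length 986 bases). In the highest 10% it was 11.9% of 1239 (409 bases). Members of the immediate early list differed too, as Egr1 (-5.37) held 0 sites and Jund (0.04) held 1. The sites shown here are those of 6 immediate early genes, all with low ratios. The heptamer is in capitals with up to 9 flanking bases on each side, read from the transcripts of GENCODE M21 (mm10).
Zfp36 (chr7:28376968-28376992, minus strand, 3 sites in the 3′ UTR): tgggcccttTATTTATgacgacttt
Zfp36l1 (chr12:80108424-80108448, minus strand, 3 sites): atcaaaacgTATTTATtgccaaact
Dusp1 (chr17:26506161-26506185, minus strand, 3 sites): gctggtcctTATTTATttaacaccc
Fos (chr12:85477105-85477129, plus strand, 2 sites): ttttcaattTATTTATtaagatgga
Ccn1 (chr3:145647002-145647026, minus strand, 2 sites): aagagaattTATTTATaaaattaat
Jun (chr4:95049081-95049105, minus strand, 1 site): gcttgtgcaTATTTATaatagcgtt

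Relative stability was lower in protein-coding genes with more heptamers. The median was 0.45 in 7707 genes without a site, 0.05 in 2110 with 1, -0.24 in 699 with 2, -0.40 in 260 with 3 and -0.70 in 144 with at least 4. The share called higher in 4sU RNA went from 12.6% to 17.9%, 23.3%, 27.7% and 34.0% over the same groups. Genes with more sites also had longer 3′ UTRs, with medians of 783, 1736, 2503, 3129 and 3624 bases. Within each of 4 equal classes of 3′ UTR length, genes with 3 or more sites had a lower median than genes with none. The pairs of medians were -0.70 against 0.86 up to 448 bases (7 and 2542 genes), -0.54 against 0.56 from 449 to 1067 bases (22 and 2175 genes), -0.44 against 0.21 from 1068 to 2132 bases (77 and 1795 genes), and -0.47 against -0.01 above that (298 and 1195 genes). Length was not held equal within the classes. In the same order, the median 3′ UTR was 332 against 224.5, 772.5 against 719, 1691 against 1479 and 4066 against 2945 bases. These are descriptions across genes, which are not replicates, and the heptamer was not varied.

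**Figure D4:**
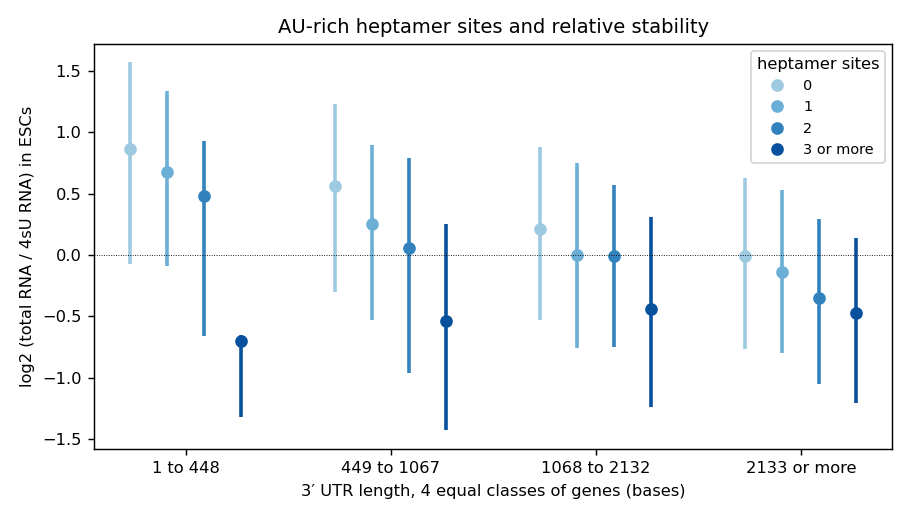
Median relative stability (points) and quartiles (bars) of protein-coding genes by number of AU-rich heptamer sites in the 3′ UTR (shades of blue) within 4 equal classes of 3′ UTR length in bases (horizontal axis). In each class genes with 3 or more sites lie below genes without one, but their median 3′ UTR is also longer. In the shortest class that group has 7 genes.

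Transcription factor genes, those of naive pluripotency included, were more often called higher in 4sU than in total RNA. Of 26 pluripotency factor genes 11 were higher in 4sU and 2 in total RNA (median -0.89, SD over library pairs 0.20, n = 3). Klf5 had 532, 596 and 359 CPM in 4sU and 37.8, 37.7 and 23.0 CPM in total RNA (-3.90 ± 0.23 SE). Klf2 was at -2.56, with 860, 888 and 815 CPM against 166, 153 and 118 CPM, Tbx3 at -2.08, Klf4 at -1.84 and Sox2 at -1.23. Nanog (-0.44), Esrrb (-0.62) and Zfp42 (-0.07) did not reach the threshold, and neither did Tfcp2l1 (0.45) or Prdm14 (0.65). Pou5f1, which encodes Oct4, stood at the other end, with 172, 174 and 123 CPM in 4sU and 918, 915 and 865 CPM in total RNA (2.53 ± 0.14 SE, adjusted p = 6.2e-07). Members of the naive network thus ran from 14.9-fold higher in nascent RNA (Klf5) to 5.79-fold higher in total RNA (Pou5f1). Both were picked as the ends of the list, so a wide gap between them follows from that choice. Genes of the Dppa family and the germline, many of them also known for naive cells, were mostly higher in total RNA (13 of 23, median 1.15), with Dppa5a at 2.49 and Dppa2 at -1.32.

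Wider families of regulators leaned to the same side. Klf and Sp factors had 13 of 21 members higher in 4sU and none in total RNA (median -1.36), from Sp2 (-3.91) to Klf8 (0.40). Id and Hes factors had 5 of 7 higher in 4sU and 1 in total RNA (median -1.41). Id2 (-2.66) and Hes1 (-1.41) were the ends among members averaging 10 CPM or more. The developmental families from Fox to E2f had 35 of 72 higher in 4sU and 5 in total RNA (median -0.98), with Foxo1 lowest at -2.88 (117, 105 and 92.9 against 13.6, 13.1 and 17.2 CPM). Zfp-numbered zinc finger genes, many of them repressors of transposons, had 152 of 337 higher in 4sU and 8 in total RNA (median -0.90, SD 0.02, n = 3). Zfp512 was their highest, at 2.53. The formative and primed markers, expressed at a low level here, had 5 of 8 higher in 4sU and 2 in total RNA (median -1.16; Zic2 -2.88), while the methyltransferase gene Dnmt3b was at 2.09. Trophectoderm markers had 1 of 6 higher in 4sU and 2 in total RNA (median 0.32). The list was spread widely, with 2 members in the highest 10% of all genes kept and 1 in the lowest 10%. Eomes (-0.37) and Tfap2c (-0.13) were the ends only among members averaging 10 CPM or more. Too few fibroblast (4) and primitive endoderm genes (3) were kept to describe.

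Chromatin enzymes lay on both sides. Histone lysine methylases and demethylases had 16 of 52 higher in 4sU and 7 in total RNA (median -0.48), spanning Setd1b and the trithorax homologue Kmt2a (-1.75) at the low end and Ehmt2 at the high end. Ehmt2 had 26.6, 28.5 and 38.6 CPM in 4sU and 271, 253 and 299 CPM in total RNA. Remodellers and their readers had 8 of 49 (16.3%) higher in 4sU and 9 (18.4%) in total RNA (median -0.10), near the 15.2% and below the 25.9% of protein-coding genes. Arid1a was at -1.89, while the helicase Chd4 was at 2.11 and Smarcd3 at 2.67. SR proteins and hnRNPs had 10 of 39 higher in 4sU and none in total RNA (median -0.38; Hnrnpa1 -3.22, Srsf2 -1.13, Srsf9 0.98). Replication-dependent histones, whose mRNAs end in a stem-loop, had 20 of 58 higher in 4sU RNA (median -0.79), but the library pairs differed here, with medians of -0.33, -0.44 and -1.61. Of these histone genes 43 share at least 20% of their windows with another gene, Hist1h2an (-2.49) and Hist1h2ad (0.51) among them. Polyadenylated histone variants had a median of 0.24 (3 of 11 higher in total and 1 in 4sU RNA), with H2afy at 2.01 and H2afz at -1.10 (-0.97 and no longer called without 4sU library 3).

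Mitochondrially encoded genes had the lowest median of all lists. All 12 of them, 7 mRNAs and 5 tRNAs, were higher in 4sU RNA, with a median of -5.54 (SD over library pairs 0.24, n = 3), and so were all 17 with those that passed through 1 assay. Among the mRNAs mt-Nd2, a subunit of respiratory complex I, had 7700, 10400 and 10800 CPM in 4sU and 144, 150 and 151 CPM in total RNA (-6.0 ± 0.14 SE). mt-Co1, the catalytic subunit of complex IV, was the exception in size, with 10500, 13900 and 12600 CPM against 4070, 4240 and 3290 CPM (-1.67 ± 0.14 SE). mt-Cytb was at -5.70, mt-Nd1 at -5.62 and the leucine tRNA gene mt-Tl1 at -9.24. The nuclear genes of the same respiratory complexes had a median of 1.74, so the subunits from both genomes lay on opposite sides. The ribosomal RNA depletion applied to the total RNA was not applied in both assays as far as the labels say, and its part in the mitochondrial values was not tested.

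MicroRNA loci are counted here as hairpins or primary transcripts, since mature microRNAs are too short to be what these libraries measure. The annotation lists 1186, of which 575 had a read in an ESC library and 37 were kept, 36 of them higher in 4sU RNA. Of the 20 that passed on the mean of both assays 19 were higher in 4sU RNA (median -3.33, SD over library pairs 0.15, n = 3), and Mir703 was the exception at 3.23. The miR-290 cluster on chromosome 7, the most abundant microRNA cluster of ESCs, had all 7 loci higher in 4sU RNA, from -3.94 (Mir290a) to -2.30 (Mir291a). Mir290a had 57.1, 62.1 and 56.8 CPM in 4sU and 5.13, 4.58 and 1.86 CPM in total RNA. Mir294 had 18.9, 20.8 and 17.1 CPM against 2.08, 1.61 and 1.39 CPM (-3.47 ± 0.23 SE), and neither locus overlapped between assays. Mir17hg, the host of the miR-17-92 cluster, was at -3.74 and the X-linked Mir363 at -4.35. The 3p arms of 6 of the 7 loci, without that of Mir292, are shown with the seed (bases 2 to 8) in capitals, because a shared seed groups its members into a family. They were taken from RefSeq (GRCm38.p6), which held mature sequences for 13 of the 14 loci looked up. The first 3 share all 7 bases of the seed, and 5 of the 6 share bases 2 to 7.
miR-291a-3p (chr7:3218968-3218989, plus strand): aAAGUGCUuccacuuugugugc
miR-294-3p (chr7:3220691-3220712, plus strand): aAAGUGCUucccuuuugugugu
miR-295-3p (chr7:3220815-3220837, plus strand): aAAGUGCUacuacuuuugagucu
miR-290a-3p (chr7:3218674-3218697, plus strand): aAAGUGCCgccuaguuuuaagccc
miR-291b-3p (chr7:3219529-3219550, plus strand): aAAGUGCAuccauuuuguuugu
miR-293-3p (chr7:3220390-3220411, plus strand): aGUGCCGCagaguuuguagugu

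Hosts and nuclear RNAs followed the microRNA loci. Of 16 spliced non-coding genes whose introns hold small nucleolar RNAs 14 (87.5%) were higher in 4sU RNA (median -2.37, SD over library pairs 0.24, n = 3). This is near the 79.1% of all long non-coding genes, whose median was -2.52. Gas5 had 1300, 1550 and 1520 CPM in 4sU and 265, 275 and 256 CPM in total RNA (-2.45 ± 0.10 SE), Snhg1 was at -3.07 and Snhg12 at -3.16, and Snhg14 at -0.13 was the highest. Of 21 nuclear long non-coding RNAs 13 (61.9%) were higher in 4sU and none in total RNA (median -1.51, SD 0.01, n = 3). That share is below the 79.1% of the class. Tsix, the antisense partner of Xist, was at -4.32 (305, 296 and 323 against 14.4, 14.7 and 17.7 CPM), and Neat1, the scaffold of paraspeckles, at -2.59. Malat1, which lies in nuclear speckles, was the highest at 0.88, with 3180, 3490 and 1860 CPM in 4sU and 4900, 5020 and 5210 CPM in total RNA. Its assays did not overlap, but the difference stayed under the fold threshold.

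Structural RNAs of RNA polymerase III, of telomerase and of the spliceosome had the highest median of all lists. Of 9 such RNAs 6 were higher in total RNA (median 2.84), and library pair 3 had a lower median (2.05) than library pairs 1 and 2 (3.03 and 3.1). Rmrp, the RNA of RNase MRP, had 1980, 1920 and 2050 CPM in 4sU and 18600, 17900 and 10700 CPM in total RNA (2.94 ± 0.19 SE). The telomerase RNA Terc was at 3.04, the RNase P RNA Rpph1 at 2.84 and 7SK (Rn7sk) at 2.13. Rmrp, Rpph1 and Rn7sk share 100%, 68.2% and 68.1% of their windows with other annotated genes, so their levels are uncertain. The Y RNA gene Rny3 was higher in library pair 3 in both assays, with 9.96, 8.79 and 59.3 CPM in 4sU and 118, 102 and 709 CPM in total RNA, so that its ratio varied little while its level did (3.68, SD of the ratio over library pairs 0.02). Its call was lost without 4sU library 1 (3.35). The minor spliceosomal RNAs Rnu11 (-3.66) and Rnu12 (-2.53) lay on the nascent side, unlike the rest. Small Cajal body RNAs had a median of 2.18 (5 of 8 higher in total RNA), and snoRNAs, most of which lie inside host genes, had -1.47 (91 of 168 higher in 4sU RNA, SD over library pairs 0.57). Reads of a snoRNA inside a host gene cannot be told apart from those of the host's unspliced transcript, and the recovery of small RNAs was not measured in either assay.

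Cytosolic ribosomal protein genes did not form a single group. Of 84 genes 28 were higher in total and 27 in 4sU RNA, with quartiles of -1.74 and 1.17 around a median of 0.37 (SD over library pairs 0.30, n = 3). Rplp0, of the ribosomal stalk, had 159, 183 and 186 CPM in 4sU and 1090, 1100 and 872 CPM in total RNA (2.53 ± 0.13 SE). Rps13, of the small subunit, had 103, 127 and 146 CPM against 8.85, 8.82 and 8.26 CPM (-3.83 ± 0.16 SE). The ends of this list, both proteins of 1 particle, thus differed in ratio by more than 6 on the log2 scale. Processed copies of these genes are common in the mouse genome, and the authors kept uniquely aligned reads only, so the share of 50-base windows of each principal transcript that also occur in transcripts of other genes was computed.

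Ribosomal protein genes with the most shared windows had the lowest ratios. The 15 genes with up to 20% of windows shared had a median of 1.21, with 10 higher in total and none in 4sU RNA. The 33 genes from 20 to 50% had 0.34, the 19 from 50 to 80% had 0.41, and the 15 above 80% had -2.85, with 11 higher in 4sU and none in total RNA. Across the 82 genes with windows Spearman's rho was -0.467, as a description. Rpl9, with 93.3% shared, was at -3.02. Of ribosomal protein genes 81.7% shared at least 20% of their windows, against 6.11% of all protein-coding genes, among which rho was -0.0809 (11045 genes). Other lists were not uniform. The 7 glycolytic genes above 20% had a median of 1.64, with 5 higher in total and 1 in 4sU RNA, against 2.09 for the 17 others. The one in 4sU RNA was Gapdh, which shared 82.5% of its windows, with 29.5, 37.7 and 45.3 CPM in 4sU against 3.83, 4.53 and 9.0 CPM in total RNA. Cox7c (53.0% shared, -3.27), Actg1 (55.9%, -3.52) and Hnrnpa1 (46.4%, -3.22) were the lowest named genes of their lists. In the oxidative phosphorylation list the 66 genes with up to 20% shared had 58 higher in total and none in 4sU RNA, and the 13 others had 7 and 3. Genes were also set beside their numbered pseudogenes. In 11 such pairs both passed on the mean of both assays, and the gene was lower than its pseudogene in 8. The signs were opposite in 5 pairs, with the gene below 0 in 3, as for Rps13 beside Rps13-ps1 (2.57), and above 0 in 2. The part of shared sequence in these values was not tested, and for genes with many copies the ratio is uncertain.

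**Figure D5:**
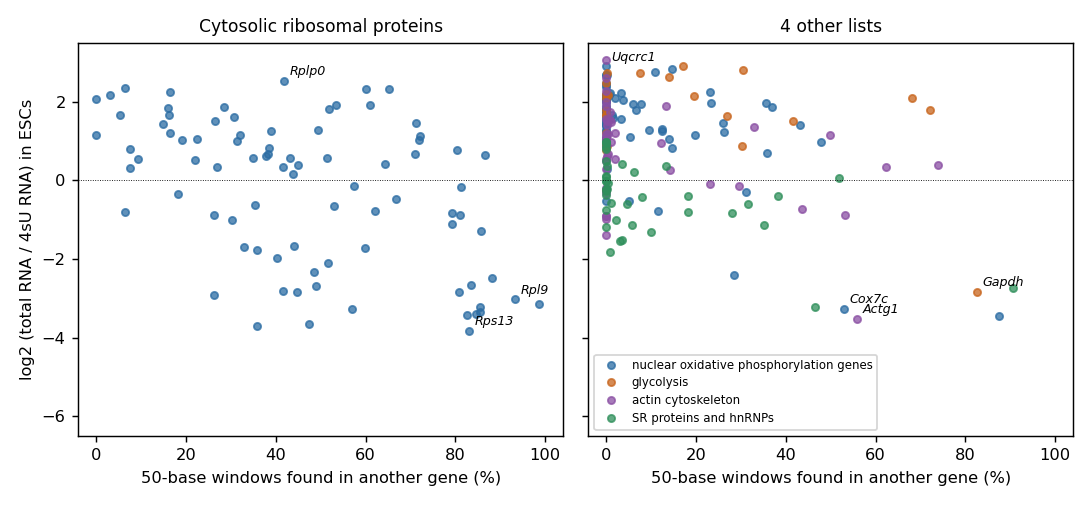
Relative stability (log2 of total over 4sU RNA, vertical axis) against the percentage of 50-base transcript windows that also occur in another gene (horizontal axis), for cytosolic ribosomal protein genes (left) and 4 other lists (right). Each point is a gene. Ribosomal protein genes with up to 20% of windows shared have a median of 1.21 and those above 80% a median of -2.85.

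Families defined by the letters of the symbol alone, without a chosen list, were ranked as well. They use the same ratios and share genes with the lists, such as Klf and Psmd genes, so a similar order is no independent evidence. Of 136 such roots with at least 10 protein-coding genes, the lowest medians were those of Klf (-1.74), Prr (-1.48), Atxn (-1.18), Atf (-1.11), Zbtb (-1.06) and Gm (-0.99). Of 38 Zbtb genes, which encode BTB zinc finger factors, 21 were higher in 4sU and 2 in total RNA. The highest medians were those of Aldh (1.85), Ndufb (1.82), Psmd (1.73), Ndufa (1.58), Eef (1.39) and Chmp (1.31). Aldh genes encode aldehyde dehydrogenases, with 11 of 13 higher in total RNA, Ndufa and Ndufb genes subunits of complex I (12 of 13 and 9 of 10), and Psmd genes the proteasome cap (10 of 14). No gene of these 6 highest roots was called higher in 4sU RNA. Of all protein-coding genes 25.9% were higher in total and 15.2% in 4sU RNA. The roots were picked by their medians, so such counts follow in part from that choice.

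EpiLCs, collected about 56 h after LIF and 2i were withdrawn, were measured the same way. List medians there were 1.65 for the tricarboxylic acid cycle, 1.57 for the proteasome, 1.75 for nuclear oxidative phosphorylation genes, -2.31 for immediate early genes and -4.96 for mitochondrially encoded genes. The difference in relative stability between ESCs and EpiLCs, tested as an interaction over all 12 libraries, passed the threshold in 191 of 13333 genes (1.43%), Pou5f1 among them (-1.07 in EpiLCs minus ESCs). It did so in 8 of the 119 genes that the naming rule gave, but that rule used the ESC ratios which enter the difference, so nothing is read from this count.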

How the data were processed

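Total and 4sU RNA of ESCs were measured by strand-specific single-end RNA-seq, with 3 libraries each, and 6 EpiLC libraries were used for 1 comparison. The table the authors deposited holds raw counts per gene. Per the study's methods and the submitters' processing notes, reads were trimmed with cutadapt 1.14, aligned to mm10 with STAR 2.5.3a, kept where the position was unique, and counted on the exons of GENCODE M14 genes without ribosomal RNA by featureCounts 1.5.3. Reads on exonic bases shared by genes of 1 strand are not counted that way. The spike-in entries held 0 reads and gave no absolute scale. No UMIs were used, so the depth covers counting error only.

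Counts were TMM-scaled and fitted with limma-voom 3.58.1 (edgeR 4.0.16, R 4.3.3), with assay as the only term, on genes that reached 3 CPM in 3 or more of the 6 libraries. Every adjusted p printed came from this fit, and folds are ratios on the log2 CPM scale with a prior count of 0.5. On simulated counts for 13333 genes with 200 changed, 188 were called and so were 7 unchanged genes. As many were raised as lowered there, so the check does not cover the scaling where many genes differ. Replicates differed by more than sampling noise (chi-square over its degrees of freedom was 2.39 to 25.4). The deviations of same-numbered total and 4sU libraries from their group means correlated (r = 0.193, 0.423 and 0.465). For unlike numbers r ran from -0.483 to 0.363, the highest being 4sU library 2 with total library 1. These values set number 3 apart but do not pair libraries 1 and 2. The pairing by number rests on the split of 1 extract that the labels imply. The fit without the block was kept as the main one.

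Gene types, exonic overlap and 3′ UTRs came from GENCODE M21 (99.6% of IDs matched), Python 3.11.15, numpy 2.4.6 and pandas 2.3.3. The members, the 47 lists, the tests and the naming rule were chosen with earlier results of these data known. Besides list members that show a split by role, the text names the 12 highest and 12 lowest protein-coding genes and the 6 highest and 6 lowest of other types among called genes with at least 200 exonic bases, 10 CPM or more on average and assays that do not overlap (4386 genes met this), and the ends of each list, a few of which are not reported here. Lists were described by counts and medians, without a set test. Alternatives covered scaling, filter, DESeq2 1.42.0, the quasi-likelihood test of edgeR, a fit on 12 libraries, the replicate block, sample weights, thresholds, protein-coding genes, uridine content, genes within other genes and left-out libraries. Leaving out both replicate 3 libraries, genes sharing no exonic base with a same-strand gene and genes with few shared windows (under 5%) were chosen after seeing the data.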

Additional observations from a re-analysis of the deposited data

Results flagged for a closer look

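Relative stability differed between ESCs and EpiLCs in 8 named genes by the interaction test of limma-voom over all 12 libraries, against 191 of 13333 genes in all. These genes were picked for their ESC ratio, which enters the test, so high ones that fell and low ones that rose are no independent evidence of a change. Given as EpiLC minus ESC on the log2 scale, Setd1b differed by 1.24 and Rnu11 by 1.72, so both were less strongly on the nascent side in EpiLCs. Lmna differed by -1.19, Lamb2 by -2.04, Pou5f1 by -1.07 and Khdc3 by -4.31, and Khdc3 went from 3.33 in ESCs to -0.99 in EpiLCs. Hes1 differed by -1.03 and Mir6236 by -2.37. Khdc3 shares 47.0% of its exonic bases with another gene on the same strand. Mir6236 varied among ESC library pairs (SD of the ratio 1.25), and the part of ribosomal RNA depletion, described for total RNA alone, in its values was not tested. No sample was tested as standing apart within its group, because each group has 3 libraries.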

How the results depend on the processing

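The main counts were 3066 genes higher in total and 3493 higher in 4sU RNA. Without an expression filter they were 4997 and 9238 of 29611 genes. Against a log2 difference of 1 (limma treat) 1701 genes were higher in total and 2606 in 4sU RNA. With adjusted p alone the counts were 5174 and 5029. Protein-coding genes fitted alone gave 2232 and 2363, against 2954 and 1829 of them before. The fit with the replicate block gave 3086 and 3514 and changed the call of no named gene. Leaving out each library in turn gave 2995 to 3178 and 3448 to 3551. Library totals in place of TMM gave 2546 and 3872 and moved the median of all genes to -0.12. The other alternatives for both counts stayed within 1.5 times.

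List medians were also taken minus the median of all genes kept. Of 752 values under alternatives, 545 moved by less than the spread over library pairs, 196 moved by more and 11 turned sign, and 36 of 47 lists stayed on 1 side of 0 throughout. Those that turned without a filter were pluripotency factors (0.07), histone methylases and demethylases (0.32), remodellers (0.90), SR proteins and hnRNPs (0.58), amino acid transporters (0.82) and replication-dependent histones (0.17), where 29611 genes enter the median; the cause was not tested. mRNA decay factors turned with protein-coding genes as background (-0.13), with the uridine trend removed (-0.03), without both replicate 3 libraries (-0.06) and without genes inside others (-0.03). Trophectoderm markers turned with few shared windows (-0.18). Of 1547 values for the 119 named genes 1528 stayed on their side of the threshold, 11 lost the call (Mdh2, H2afz and Rny3) and 8 gained it, and no called value reversed. Jund (to -0.16 at the lowest), Snhg14 (0.11) and Tyms (0.06), none of them called, changed sign under at least 1 alternative. Spearman's rho between relative stability and exonic uridines was -0.104 over 13308 genes. The 4sU depth limits genes of low nascent level most.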
